A study of Homo sapiens with 24 samples.

Results

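Δ133p53α8 is 1 of 5 clonal lines made from H1299, a human non-small cell lung cancer line described as p53 null, and it stably expresses the Δ133p53α isoform from a plasmid. Its 4 RNA sequencing libraries were compared with the 4 libraries of H1299 cells carrying the vector only, and these 8 of the 24 libraries of the series were picked by their labels. All tested genes were compared, to see which transcripts differ once the isoform is present. Δ133p53α8 is a single clone and the control a single vector line. A difference between them therefore holds whatever sets this clone apart from this control line, and the isoform and the clone cannot be told apart in this comparison. The promoter of the plasmid was not given in the sources used here.

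Δ133p53 proteins are shortened forms of p53 made from an internal promoter. They lack the N-terminal transactivation domains of p53 and the start of its DNA-binding domain. Δ133p53α keeps the C terminus of full-length p53, including its oligomerization domain, whereas the β form ends in a different, shorter C terminus. In tumors, Δ133p53 isoforms are known for links to invasion, migration and inflammatory signaling.

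The libraries held between 21531599 and 25381731 counted reads, and 18295 genes passed the filter on low counts. Levels are given as reads, or as reads scaled to library size (CPM, with TMM normalization). A gene was called, and is said to have risen or fallen, at an adjusted p under 0.05 with a fitted log2 fold change of at least 1.5 in size (edgeR quasi-likelihood test, Benjamini-Hochberg adjustment over all tested genes, n = 4 libraries per line). Nothing states that the libraries of a line came from separate cultures, so the p-values measure the spread between libraries only. That spread was estimated in a joint fit of 23 libraries in 6 lines, not from the compared libraries alone. A gene with no more than 3 reads in every library of a line was taken as being at the floor of detection, and its fold change is given as a lower bound. These bounds cover counting error only.

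Libraries within each line did not look alike. Δ133p53α8 replicate 2 favored short transcripts. The rank correlation of exonic length with its deviation from the mean of all 23 fitted libraries was -0.218, against 0.216 to 0.258 in replicates 1, 3 and 4. Control replicate 1 stood apart in the same way, at -0.126 against 0.18 to 0.205. Reads from ribosomal protein genes made up 10.1% of Δ133p53α8 replicate 2 and 8.99% of control replicate 1, and at most 6.99% of the other libraries. In Δ133p53α8 replicate 2, 7.58% of genes lay at least 1.5 log2 units from the other 3 libraries, as did 4.76% in control replicate 1 and 3.96% in control replicate 3. Results are therefore also given for 3 against 3 libraries, without Δ133p53α8 replicate 2 and control replicate 1, and for that pair alone.

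The labelled cell type was checked against marker genes. The highest markers in Δ133p53α8 were vimentin (VIM, 2379 ± 1135 CPM), keratin 8 (KRT8, 1706 ± 565 CPM) and keratin 18 (KRT18, 1245 ± 412 CPM). The epithelial genes EPCAM and CDH1 had 0 CPM in all 4 Δ133p53α8 libraries, and KRT7 and KRT19 had means of 1.74 and 0.057 CPM. The 5 lung adenocarcinoma markers summed to 0.259 to 0.56 CPM in Δ133p53α8 and 0.259 to 0.504 CPM in control. Of these, SFTPC and SLC34A2 were at 0 in both lines. The summed level of 6 immune markers was 0.849 to 1.12 CPM in Δ133p53α8 and 0.69 to 1.08 CPM in control, and PTPRC and CD3E were at 0 in both. The 4 endothelial markers summed to 0.679 to 0.925 CPM, beside 0.194 to 0.46 in control, and the 4 fibroblast markers to 0.646 to 2.01 CPM, beside 0.475 to 1.42. The endothelial sums did not overlap but were low in both lines, and PECAM1 and KDR, the 2 of them that were tested, were not called (adjusted p = 0.796 and 0.293). The 5 neuroendocrine markers summed to 1.38 to 1.49 CPM, beside 3.24 to 6.48. Of the markers, KRT8 rose, and among the neuroendocrine ones synaptophysin (SYP) fell from 4.31 to 1.29 CPM (log2 fold change -1.73, adjusted p = 0.00365). SYP made up most of the neuroendocrine sum and was the only one of the 5 tested. NCAM1 went the other way, at 0.107 CPM beside 0 in control. In such bulk libraries, fewer cells that express a gene and less RNA per cell cannot be told apart.

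Against control, 180 genes rose (0.984% of those tested) and 283 fell (1.55%). The fitted log2 fold change of all tested genes had a median of -0.02, and its median size was 0.29, so most transcripts lay close to control. Of the genes that rose, 126 were protein coding and 39 were long noncoding, and of those that fell 232 and 44 were. Called genes were mostly of low level: the median of those that rose was 2.5 CPM in Δ133p53α8 and of those that fell 3.34 CPM in control, beside 11.7 CPM in control for all tested genes. In 68 of the genes that fell, every Δ133p53α8 library was at the floor, and in 32 of those that rose every control library was. The highest level among genes that rose was that of KRT8, and among genes that fell that of ERRFI1.

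**Figure D1:**
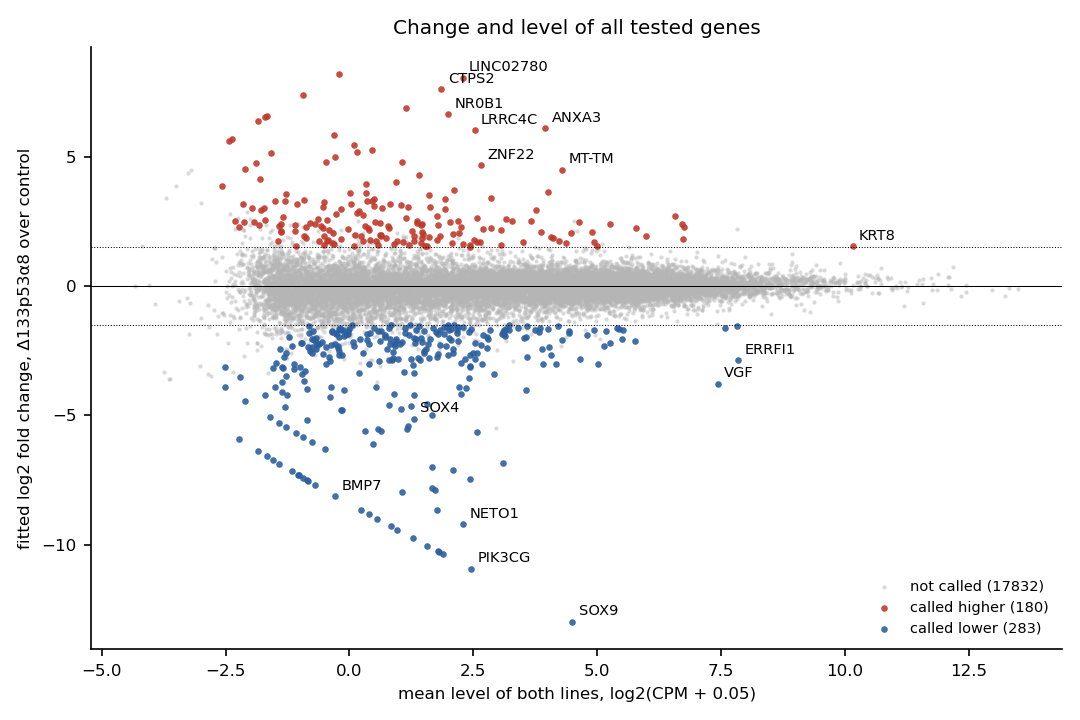
Mean level of both lines (horizontal axis, log2 of CPM plus 0.05) and fitted log2 fold change of Δ133p53α8 over control (vertical axis) for 18295 tested genes. The 180 genes called higher are red and the 283 called lower are blue; dotted lines mark the fold change threshold, and SOX9 lies lowest at -12.98. The slanted line of blue points holds genes with no reads in Δ133p53α8, whose fitted change depends on the prior count.

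The largest rises started from almost no transcript in control. CTPS2, which encodes an enzyme that makes CTP from UTP, had 135, 181, 168 and 168 reads in Δ133p53α8 and 0, 0, 2 and 1 reads in control. It was at least 57.9-fold higher (adjusted p = 7.12e-10). The long noncoding RNA LINC02780 had 238, 195, 252 and 202 reads against 0, 0, 3 and 0, which is at least 78.4-fold higher. Both transcripts were present in every Δ133p53α8 library and at the floor in every control library.

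NR0B1 encodes DAX-1, a nuclear receptor that represses transcription. It had 186, 233, 150 and 139 reads against 1, 2, 3 and 1, at least 63.3-fold higher (adjusted p = 7.12e-10). CRACR2A, a calcium-binding regulator of store-operated calcium entry, had 132, 68, 80 and 118 reads against 1, 0, 2 and 0, at least 35-fold higher. TRPM2, a calcium-permeable channel that opens on oxidative stress, had 90, 68, 41 and 35 reads against 0, 2, 1 and 3. None of these 3 genes had more than 3 reads in a control library.

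ANXA3, which encodes the membrane-binding protein annexin A3, was the most significant rise. It had 649, 509, 815 and 841 reads against 9, 12, 11 and 10, a log2 fold change of 6.13 ± 0.30 (SE; adjusted p = 4.51e-11). The zinc finger gene ZNF22 had 291, 194, 314 and 312 reads against 10, 12, 15 and 8 (4.7 ± 0.28, adjusted p = 7.12e-10). Δ133p53α8 replicate 2 was the lowest of its line for both, and still far above control.

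For a few rises replicate 2 fell well short of its line. LRRC4C, which encodes a netrin-G ligand of synapses, had 331, 321 and 354 reads in replicates 1, 3 and 4 of Δ133p53α8 but 49 in replicate 2, against 1, 9, 2 and 4 in control. NHS, a regulator of cell shape, had 57, 45 and 81 reads but 10 in replicate 2, against 0, 1, 3 and 1. ARHGAP6, a GTPase-activating protein, was more even, with 41, 30, 42 and 73 reads against 0, 1, 3 and 0. Even the low library exceeded every control library for each of the 3 genes.

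GDNF, a neurotrophic growth factor that signals through RET, had 130, 35, 99 and 100 reads against 1, 6, 3 and 3 (log2 fold change 4.81 ± 0.54, adjusted p = 7.57e-06). The mitochondrial methionine tRNA MT-TM had 1017, 446, 984 and 1042 reads against 29, 49, 37 and 44 (4.51 ± 0.45, adjusted p = 1.55e-06). None of the other 26 mitochondrial transcripts tested was called by edgeR, DESeq2 or voom (3 at an unadjusted p under 0.05 by edgeR), and their log2 fold changes ran from -1.26 to 0.81. Among them, MT-TD had an adjusted p of 0.0479 by edgeR, with a log2 fold change of -1.1, under the threshold. A transfer RNA is short and largely missed by poly(A) libraries, and MT-TM neighbors genes on either strand of a compact genome, so its reads may partly belong to them. The strand setting of the counting was not given in the sources used here.

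**Figure D2:**
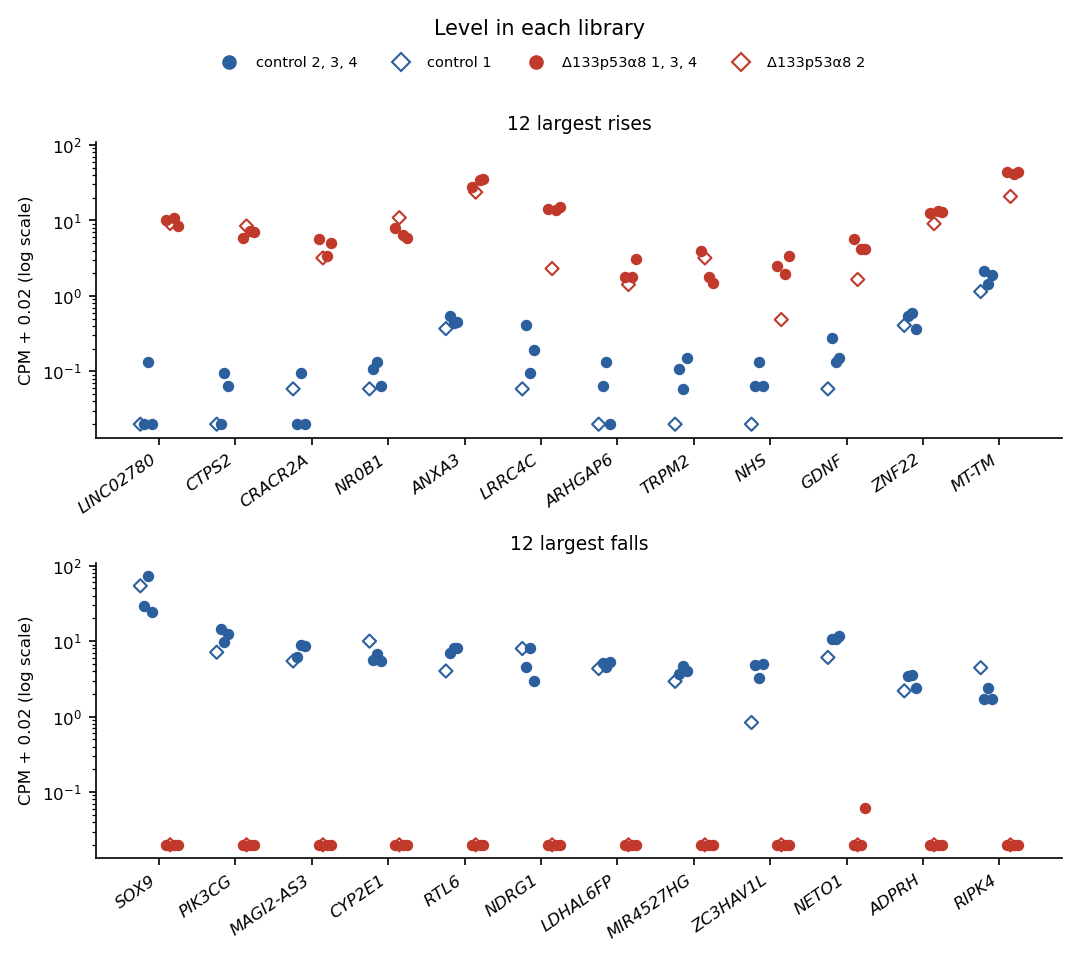
Level of the 12 largest rises and 12 largest falls in each library (CPM plus 0.02, log scale; blue, control; red, Δ133p53α8; open diamonds, Δ133p53α8 replicate 2 and control replicate 1). Every red symbol lies above every blue one in the upper panel, with LRRC4C and NHS lowest in replicate 2, and below every blue one in the lower panel.

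The largest fall was that of SOX9, a transcription factor of progenitor cells and cartilage (chromosome 17, 72121020 to 72126416, GRCh38). It had no reads in any Δ133p53α8 library and 1391, 678, 1892 and 565 reads in control, which is at least 345-fold lower (adjusted p = 4.24e-08). PIK3CG, the gamma catalytic subunit of class I PI3-kinase, had 0 reads in each Δ133p53α8 library and 183, 329, 251 and 284 in control, at least 82.9-fold lower. Neither gene was detectable at this depth in Δ133p53α8, in either kind of library.

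Other genes with no read in the 4 Δ133p53α8 libraries were of varied function. MAGI2-AS3, a long noncoding RNA, had 140, 143, 228 and 201 reads in control. CYP2E1, a cytochrome that oxidizes ethanol and small solvents, had 257, 128, 173 and 124. RTL6, derived from a retrotransposon, had 103, 160, 212 and 188. These 3 were at least 55.6-fold, 52.7-fold and 52.1-fold lower.

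NDRG1, a stress- and hypoxia-induced gene described as a metastasis suppressor, had 205, 103, 209 and 69 reads in control and 0 in every Δ133p53α8 library, at least 44.8-fold lower (adjusted p = 0.000329). RIPK4, a kinase of epidermal differentiation, had 114, 39, 61 and 39 reads in control and 0 in Δ133p53α8, at least 19.4-fold lower (adjusted p = 0.00183). Both were called with 3 against 3 libraries too, but neither was past the threshold with DESeq2. NETO1, an auxiliary subunit of glutamate receptors, had 156, 241, 280 and 268 reads in control and a single read in Δ133p53α8, at least 74.3-fold lower.

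ADPRH, which removes ADP-ribose from arginine, had 56, 78, 91 and 55 reads in control, and SPATC1, a centrosomal protein gene, 18, 18, 26 and 16. Both had 0 reads in Δ133p53α8 (at least 21.9-fold and 6.06-fold lower). LDHAL6FP, a lactate dehydrogenase pseudogene, had 111, 119, 117 and 120 reads in control and 0 in Δ133p53α8 (at least 36.6-fold lower). Reads of a pseudogene can be shared with its parent gene, and how such reads were counted was not given. The noncoding RNA MIR4527HG and ZC3HAV1L, related to the antiviral protein ZAP, were likewise at 0 (at least 29.1-fold and 26.6-fold lower). In control replicate 1, ZC3HAV1L had 21 reads, beside 111, 84 and 116 in the others, and with DESeq2 the gene was not past the threshold (adjusted p = 0.277).

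Rises among better expressed genes were smaller. KRT8 had 37801, 54024, 33659 and 29615 reads against 18964, 13297, 11255 and 13057, a log2 fold change of 1.56 ± 0.34 (SE; adjusted p = 0.00769). Without Δ133p53α8 replicate 2, its highest library, the value was 1.31, under the fold change threshold. Its partner KRT18 had a log2 fold change of 0.88 and was not called (adjusted p = 0.279). MGLL, which releases fatty acids from monoglycerides, rose from 25.8 ± 12.3 to 99.9 ± 31.1 CPM (adjusted p = 0.00212). LINC00513 rose from 11.2 ± 3.25 to 47.8 ± 21 CPM.

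Among the 6 rises of highest level were 3 zinc finger genes, for which Δ133p53α8 replicate 2 was the lowest library of its line. ZNF283 had 4670, 5719 and 5357 reads in Δ133p53α8 replicates 1, 3 and 4 and 973 in replicate 2, against 621, 953, 626 and 1311 in control. ZNF404 had 5269, 4165 and 4856 reads and 1038 in replicate 2, against 487, 615, 328 and 944. ZNF519 had 2479, 2337 and 3381 reads and 377 in replicate 2, against 301, 490, 303 and 747. For ZNF283 and ZNF519 replicate 2 lay within the range of control, whereas for ZNF404 it lay above every control library. Their log2 fold changes were 2.29, 2.73 and 2.25, and ZNF519 was not past the threshold in 9 of 17 alternatives, among them without control replicate 3 (adjusted p = 0.0951).

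Falls also took in better expressed genes. ERRFI1, a feedback inhibitor of EGFR, fell from 403 ± 166 to 55.3 ± 5.67 CPM (log2 fold change -2.87 ± 0.40, adjusted p = 0.000114). It had 1463, 1060, 1283 and 1286 reads in Δ133p53α8 and 7813, 7560, 16991 and 7651 in control. VGF, a secreted neuropeptide precursor, had 647, 802, 345 and 346 reads against 6530, 3510, 18632 and 3872 (-3.77 ± 0.72, adjusted p = 0.00256). DCBLD2, a transmembrane receptor scaffold, fell by 1.61 on the log2 scale, and AP1S1, a subunit of the clathrin adaptor AP-1, by 1.53. The lines did not overlap for any of these 4 genes. AP1S1 missed the adjusted p threshold in 5 of 17 alternatives, each without 1 library (adjusted p up to 0.0946), among them control replicate 3. DCBLD2 missed it without Δ133p53α8 replicate 3 (adjusted p = 0.0511). Without control replicate 3, the log2 fold change of DCBLD2 was -1.48, under the fold change threshold (adjusted p = 0.0379).

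Control replicate 3 was the highest library for several of these genes and carried part of the difference. STC1, a secreted glycoprotein hormone, had 1257, 1131, 5823 and 761 reads in control and 465, 365, 513 and 541 in Δ133p53α8. CLIP3, a microtubule-associated trafficking protein, had 1643, 863, 4182 and 681 reads against 221, 645, 365 and 350. Their log2 fold changes were -2.12 and -2.06 (adjusted p = 0.00921 and 0.00961). Without control replicate 3 they were -1.08 and -1.31, and neither kept its call (adjusted p = 0.0745 and 0.0819). VGF, at -3.0, and ERRFI1, at -2.52, kept theirs without it.

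Calls were compared between sets of libraries. With 3 against 3 libraries, 18165 genes were tested, of which 147 rose (0.809%) and 324 fell (1.78%). Of the 180 genes that rose with all libraries, 136 were called again and 1 was not tested. Of the 283 that fell, 242 were called again and 7 were not tested. With library state fitted as a term, 178 and 282 were called again, and the totals grew to 228 higher and 404 lower. In the pair left out, Δ133p53α8 replicate 2 and control replicate 1, 179 of the 180 genes lay higher and 282 of the 283 lower in Δ133p53α8, while 48% of all tested genes lay higher. These 2 libraries also entered the calls, so this is a description of the called genes and not a separate test. The 4 libraries of each line did not overlap for 168 of the 180 and 255 of the 283, beside 4.75% and 5.36% of all tested genes in these directions.

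**Figure D3:**
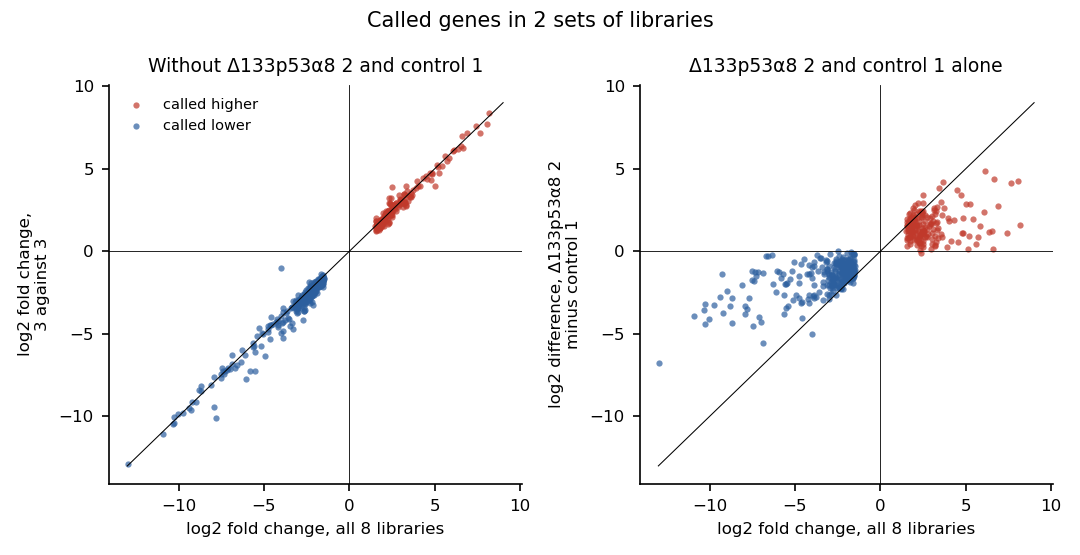
Log2 change of the 463 called genes with all 8 libraries (horizontal axis) and, on the vertical axes, with 3 against 3 libraries (left) or in Δ133p53α8 replicate 2 minus control replicate 1 (right, with 0.5 CPM added to each level). Red genes rose and blue genes fell; all but 2 kept their direction in the single pair, 179 of 180 and 282 of 283, and the added CPM shrinks the changes of low genes there.

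The gene lists were read against the 2.53% of all tested genes that were called. At an adjusted p under 0.05 and any size of change there were 825 tested genes, the called ones included. Among 30 tested p53 target genes, none was called, and their median log2 fold change was -0.01. CDKN1A, the cell cycle inhibitor p21, had 45.2 ± 11.8 CPM in Δ133p53α8 and 34.4 ± 8.25 in control (log2 fold change 0.39, adjusted p = 0.592). MDM2, the ubiquitin ligase of p53, had 58.8 ± 8.95 and 38.7 ± 9.41 CPM (0.61, adjusted p = 0.148). With 3 against 3 libraries MDM2 was at 0.87 (edgeR, adjusted p = 0.0469), under the fold change threshold. None of the 32 cell cycle genes was called either (median 0.19). At an unadjusted p under 0.05 the edgeR test gave 3 genes in each list, and neither DESeq2 nor voom called any. CDK1, of the cell cycle list, was higher at an adjusted p of 0.014 by edgeR. Its log2 fold change, 1.15, was under the threshold.

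The lists of growth signaling output and of surface receptors held no called gene. Outside them, ERRFI1 and receptor genes such as GFRA1 and IL13RA2 fell, and INSR rose. Phosphorylation and protein at the cell surface are not measured by RNA sequencing. None of 21 MAPK output genes was called (median -0.23), with 5 at an unadjusted p under 0.05 by edgeR and 0 called by DESeq2 or voom. Of 9 listed surface receptor genes 6 were tested (2 at an unadjusted p under 0.05, 0 called by DESeq2 or voom), and MET, EGFR, ITGA5 and TFRC had log2 fold changes of -0.04, 0.16, -0.80 and 0.43. With 3 against 3 libraries ITGA5 was at -1.02 (edgeR, adjusted p = 0.0296), under the fold change threshold. The transferrin receptor TFRC varied widely between libraries, with 11938, 2605, 6129 and 9754 reads in Δ133p53α8 and 3780, 8392, 1929 and 8842 in control. The lists for iron and ferroptosis (28 tested), cholesterol synthesis (23), the integrated stress response (23), NRF2 targets (23), and integrins and laminins (26) likewise held no called gene by edgeR. They held 3, 3, 1, 5 and 5 genes at an unadjusted p under 0.05, voom called none of them, and DESeq2 called 1, the iron exporter SLC40A1, as lower. By edgeR, STEAP3, ABCC1 and LAMC3 were lower at adjusted p = 0.0437, 0.0469 and 0.00458. Their log2 fold changes, -0.71, -0.82 and -1.43, were under the threshold. The medians of these lists ran from -0.26 for integrins and laminins to 0.34 for cholesterol synthesis.

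Genes of neurons and axon guidance held the most calls, with 5 of 29 tested genes higher and 3 lower (median 0.26). The lists were chosen with earlier results of these data known, so this ranking describes the lists and tests nothing. Besides LRRC4C and GDNF, GAP43, a growth cone protein, had 20, 68, 22 and 24 reads against 0, 1, 2 and 1, at least 12.2-fold higher, or 7.61-fold without Δ133p53α8 replicate 2. ERC2, an active zone scaffold, had 94, 61, 118 and 96 reads against 11, 14, 10 and 11 (log2 fold change 3.06 ± 0.24, adjusted p = 4.39e-08). The guidance receptor ROBO2 rose by 1.85, a call lost with 3 against 3 libraries. The GDNF co-receptor GFRA1 had 0, 1, 1 and 2 reads against 43, 55, 70 and 62, at least 18-fold lower, so the ligand rose and this receptor fell. The adhesion molecule L1CAM had 2, 3, 0 and 0 reads against 19, 11, 54 and 12, at least 7.28-fold lower, or 4.42-fold without control replicate 3. The secreted guidance factor SLIT3 fell by 1.69 on the log2 scale but missed the threshold in 8 of 17 alternatives (adjusted p up to 0.161).

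Among 26 tested lineage transcription factors, 2 rose and 2 fell. SOX4, a factor of progenitor cells related to SOX9, had 1, 1, 3 and 7 reads against 96, 107, 123 and 132 (log2 fold change -5.12 ± 0.59, adjusted p = 9.35e-06). The intestinal factor CDX2 had 19, 18, 21 and 12 reads against 2, 9, 6 and 2 (1.94 ± 0.53, adjusted p = 0.0395), and was not called with 3 against 3 libraries. NR0B1 and SOX9 were the other two. The median of the list was 0.28.

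Matrix genes moved in both directions. Of 17 tested collagens, 3 rose and 1 fell. COL4A5 and COL4A6, neighboring genes for basement membrane chains on the X chromosome, rose by 2.35 and 3.95 on the log2 scale. COL4A6 had 41, 52, 57 and 59 reads against 6, 2, 4 and 2. COL16A1 rose by 1.85, and it and COL4A5 lost their calls with 3 against 3 libraries. COL13A1, a transmembrane collagen, fell from 295, 41, 193 and 39 reads to 9, 5, 3 and 4 (log2 fold change -4.58 ± 0.70, adjusted p = 0.000304). Of 25 matrix proteases 1 was called, ADAMTS1, which fell by 2.06 on the log2 scale and was not called with 3 against 3 libraries. Of 26 mesenchymal genes 1 was called, the matrix glycoprotein SPARC, which fell by 2.31 on the log2 scale. SPARC had 13, 63, 19 and 19 reads against 316, 83, 171 and 67, so Δ133p53α8 replicate 2 overlapped control. It missed the threshold in 6 of 17 alternatives, the pairwise fit and the replicate block among them (adjusted p up to 0.0962).

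Of 31 Wnt pathway genes, RSPO4 rose and SFRP1 and NKD2 fell. RSPO4, an agonist of Wnt signaling, had 50, 47, 30 and 36 reads against 2, 2, 9 and 1 (log2 fold change 3.61 ± 0.48, adjusted p = 5.96e-05). The secreted Wnt inhibitor SFRP1 had 6, 6, 3 and 2 reads against 74, 28, 62 and 34 (-3.38 ± 0.65, adjusted p = 0.00257). NKD2, an inhibitor that binds Dishevelled, fell by 2.52, and was not called with 3 against 3 libraries. LEF1 was higher by edgeR (log2 fold change 1.03, adjusted p = 0.04445), under the fold change threshold. With 3 against 3 libraries it was at 0.99 (adjusted p = 0.0923). The Wnt list had a median of -0.01.

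Of 28 TGF-β and BMP genes, 2 fell. BMP7, a secreted ligand, had 0 reads in Δ133p53α8 and 40, 42, 29 and 39 in control (at least 11.8-fold lower). LTBP2, a latent TGF-β binding protein family member, fell by 1.73, and by 1.14 without control replicate 3, under the fold change threshold. In that list, BMP4 was higher by edgeR (log2 fold change 1.25, adjusted p = 0.016), also under that threshold. With 3 against 3 libraries BMP4 was at 0.82 (adjusted p = 0.162). The cytokine LIF was the only called gene of 15 NF-κB and inflammation genes: it had 138, 110, 91 and 86 reads against 660, 357, 1172 and 309 (log2 fold change -2.42 ± 0.31, adjusted p = 4.12e-05). ISG15 was the only one of 20 interferon-stimulated genes. It fell by 1.86 (adjusted p = 0.0454) and was not called with 3 against 3 libraries, while the median of that list was -0.35.

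The remaining lists held 1 called gene each. MYO5B, a motor of recycling endosomes, was called among 31 endosomal recycling genes and rose by 1.68 ± 0.30 (log2, SE; adjusted p = 0.00115). In that list, EHD3 was lower (log2 fold change -1.36, adjusted p = 0.00147) and DGKA higher (1.07, adjusted p = 0.00246) by edgeR. Both were under the fold change threshold. NDRG1 was the call among 24 hypoxia genes (median -0.12), RIPK4 among 38 necroptosis and apoptosis genes (-0.01), KRT8 among 17 epithelial genes (-0.02) and CTPS2 among 36 genes of nucleotide synthesis (0.15). Among 44 DNA repair genes, MGMT, which removes alkyl groups from guanine, fell from 123, 54, 85 and 51 reads to 5, 19, 11 and 6 (-2.78 ± 0.51, adjusted p = 0.00177). CALHM5, a calcium homeostasis modulator family member that is in no list, rose by 2.64 ± 0.29 (adjusted p = 6.31e-06), whereas the tropomyosin gene TPM2 was not called (0.28, adjusted p = 0.870).

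**Figure D4:**
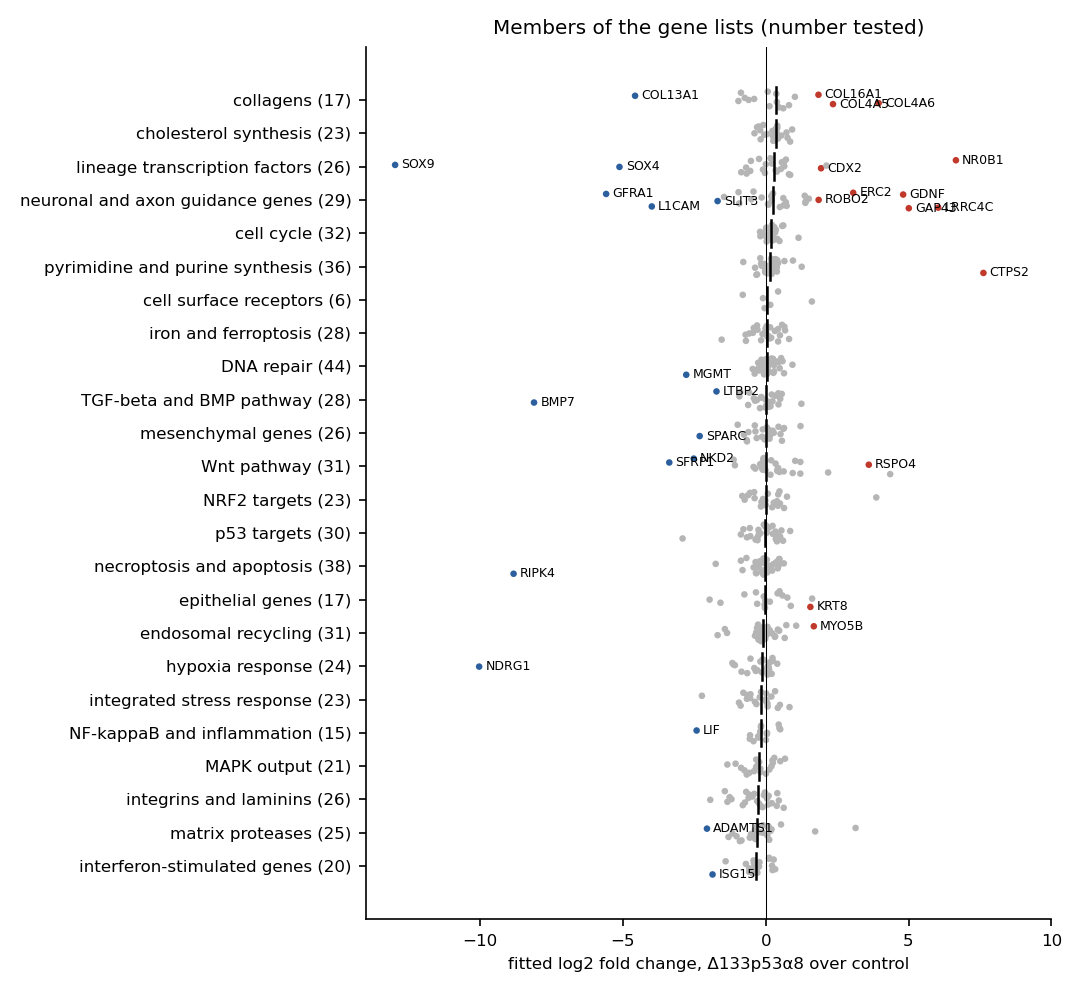
Fitted log2 fold change of Δ133p53α8 over control for each tested member of 24 gene lists, with the number tested in brackets. Red members rose, blue members fell, gray members were not called and the black bar is the median of the list; SOX9 is lowest at -12.98, and the medians lie between -0.35 and 0.37.

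Some called genes lay next to each other. Among neighboring tested genes, 21 runs of at least 2 called genes held 49 of the genes that rose, and 26 runs held 59 of those that fell. The neighbors described here were chosen after their values were seen. On chromosome 19, LYPD5, ZNF283 and ZNF404 formed a run of genes that rose (43785874 to 43901385, GRCh38). On chromosome 10, ZNF22-AS1 and CEP164P1 rose beside ZNF22 (log2 fold changes 3.32 and 4.31). On chromosome 12, PARP11, a mono-ADP-ribosyltransferase, rose by 2.82 beside CRACR2A, and on chromosome 6, CALHM4 rose by 2.05 beside CALHM5. Antisense or overlapping partners in a run, such as ZNF22-AS1, may share reads with the gene beside them.

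On chromosome 13, GAS6, a ligand of the AXL family of receptors, had 945, 1119, 895 and 889 reads against 113, 210, 197 and 204 (log2 fold change 2.49 ± 0.33, adjusted p = 5.78e-05), and the antisense RNA GAS6-AS1 rose by 2.20. LINC00511, the nearest tested neighbor of SOX9, had 0, 2, 0 and 2 reads against 280, 104, 162 and 76, at least 47.6-fold lower. On chromosome 5, NKD2, SLC12A7 and TERT fell together (1008802 to 1295068). TERT, the catalytic subunit of telomerase, had 31, 26, 34 and 30 reads against 182, 214, 81 and 204 (-2.42 ± 0.38, adjusted p = 0.000355). On chromosome 19, the TNF family ligands TNFSF9 and CD70 fell with TUBB4A, and CD70 had 4, 9, 3 and 1 reads against 133, 74, 48 and 83. On chromosome 7, HOXA10, a patterning factor, had 14, 14, 14 and 17 reads against 147, 102, 100 and 91 (-2.79 ± 0.32). All of these were called with 3 against 3 libraries too, except NKD2.

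By chromosome, the share of tested genes that rose was highest on chromosome 18 (11 of 297, 3.7%) and the share that fell on chromosome 8 (22 of 666, 3.3%), beside 0.984% and 1.55% of all tested genes. On chromosome 22 none of 413 genes rose by the edgeR test, with 23 higher at an unadjusted p under 0.05 and 2 called higher by each of DESeq2 and voom. The median log2 fold change ran from -0.22 on chromosome 15 and -0.21 on chromosome 16 to 0.23 on chromosome 3 and 0.26 on chromosome 18, so no chromosome median reached 0.3 in size. Copy number was not measured, and its part in these values was not tested.

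To see where Δ133p53α8 differs from the other clones of its isoform, it was compared with the mean of Δ133p53α1 and Δ133p53α2, with 4 libraries each, in the same fit. Only 28 genes were higher (0.153%) and 9 lower (0.0492%), and with library state as a term 27 and 9 of these were called again. This comparison and the one with control share the Δ133p53α8 libraries, so a library of that clone that stands apart enters both. Of the 37 genes, 16 were also called against control and 21 were not.

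Of the 24 largest rises and falls described above, 22 were not called against the other α clones, and MT-TM and ARHGAP6 were. CTPS2 had a mean of 7.11 CPM in Δ133p53α8, 6.03 in Δ133p53α1 and 8.76 in Δ133p53α2, beside 0.03 in control. ANXA3 had 30.4, 9.04 and 32.6 CPM, beside 0.431, and TRPM2 had 2.56, 0.186 and 3.2 CPM, beside 0.0638. The 12 largest falls were at 0.246 CPM or less in each of the other α clones, where SOX9 had 0.0243 and 0.0109 CPM, beside 45.1 in control. NDRG1, ZC3HAV1L, ADPRH and RIPK4 had no reads in any library of the 3 α clones. All α clones were set beside the same 4 control libraries, and a difference that missed the threshold does not show that the clones were alike.

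Higher than in control and than in the other α clones were MT-TM, ZNF558, INSR, HSPB8, ARHGAP6 and LIPG. MT-TM had a mean of 37.6 ± 11.2 CPM in Δ133p53α8, 1.64 in control, 1.19 in Δ133p53α1 and 0.363 in Δ133p53α2. The insulin receptor gene INSR had 2.79 ± 0.51 CPM, beside 0.582, 0.31 and 0.246. The zinc finger gene ZNF558 had 5.39 ± 1.5 CPM, beside 0.645, 0.156 and 1.66. HSPB8, a small heat shock protein, had 5.54 ± 0.227 CPM in Δ133p53α8 and 4.35 ± 1.35 CPM in Δ133p53α2. For HSPB8 the difference from the mean of the clones lay mostly with Δ133p53α1, at 0.157 CPM.

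Lower than in both were SLC12A7, FBXL7, SFRP1, BARX2 and TM4SF19. FBXL7, a substrate receptor of a ubiquitin ligase, had a mean of 0.0967 CPM in Δ133p53α8, 4.36 in control, 1.06 in Δ133p53α1 and 0.56 in Δ133p53α2. The potassium-chloride cotransporter SLC12A7 had 1.67 CPM, beside 7.36, 5.82 and 4.89. The Wnt inhibitor SFRP1 had 0.188 CPM, beside 1.98, 1.59 and 2.01 ± 1.91. The homeobox factor BARX2 had 0.517 ± 0.214 CPM, beside 3.04, 1.04 ± 0.673 and 4.71. For BARX2 the difference from the mean of the clones lay mostly with Δ133p53α2. TM4SF19 had 1 read in Δ133p53α8 and 3 to 9 in the control libraries, so it rests on few reads.

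A further 5 genes, IL13RA2, SFMBT2, FAIM, MGMT and IHO1, were lower in Δ133p53α8 than in control but higher than the mean of the other α clones. IL13RA2, a decoy receptor for interleukin-13, had 18.8 CPM in control, 4.82 ± 1.8 CPM in Δ133p53α8, and 0.0133 and 0.0103 CPM in Δ133p53α1 and Δ133p53α2. The Polycomb-related gene SFMBT2 had 10.4, 2.1, 0 and 0.0103 CPM in that order, and MGMT had 3.15, 0.455, 0.0137 and 0.0139 CPM. FAIM, an inhibitor of Fas-induced apoptosis, had 7.23, 2.42, 0.199 and 0.584 CPM. Δ133p53α8 thus lay between control and the other α clones for these 5 genes.

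**Figure D5:**
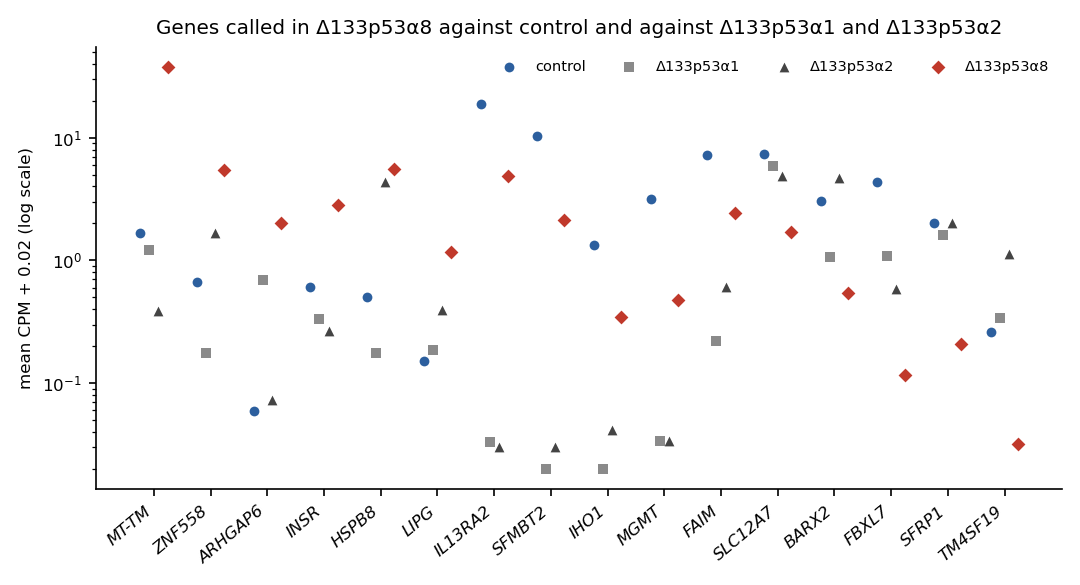
Mean level (CPM plus 0.02, log scale) in control, Δ133p53α1, Δ133p53α2 and Δ133p53α8 of the 16 genes called in Δ133p53α8 both against control and against the mean of the other α clones (4 libraries per line). From left, Δ133p53α8 is the highest for 6 genes, lies between control and the others for 5 genes, from IL13RA2 to FAIM, and is the lowest for 5 genes.

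Some genes separated Δ133p53α8 from the mean of the other α clones without a call against control. STAT6, a transcription factor of interleukin-4 signaling, had 1.3 ± 0.555 CPM in Δ133p53α8, 2.46 in control, 18.6 in Δ133p53α1 and 4.2 in Δ133p53α2. Its log2 fold change was -0.92 against control (adjusted p = 0.0347, under the fold change threshold) and -2.76 against the other α clones (adjusted p = 7.29e-07). The adhesion molecule ICAM1 had 7.7, 5.42, 6.48 and 0.527 CPM in the same order, so its difference from the α clones lay with Δ133p53α2. The growth factor PTN had 1.41, 3.17, 0.321 and 0 CPM. MTND2P28, a nuclear pseudogene of a mitochondrial gene, had 2.28, 2.85, 49.9 and 1.69 CPM, so its difference from the α clones lay with Δ133p53α1. Reads of this pseudogene can be shared with the mitochondrial copy.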

How the data were processed

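The authors prepared strand-specific poly(A) libraries from each line, trimmed the reads, used HISAT2 for alignment to GRCh38, and obtained gene counts from exonic reads with featureCounts. Reads mapping to several places and the strand setting are not described in the sources used here. The authors deposited raw counts per gene, without normalization, in a table of 60564 rows, of which 1 without a gene name held 0 reads and was left out. Of its 24 columns, 1 matched no sample label and was not used, which left 23 libraries in 6 lines. Total counts per library were 21531599 to 25381731 in the 8 libraries compared. A count of 0 allows up to 3 reads at this depth, reads carry no molecular identifiers, and bounds cover counting error only.

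Counts were fitted in R 4.3.3 with edgeR 4.0.16: TMM normalization, filterByExpr by line, a quasi-likelihood fit of 6 lines (residual degrees of freedom, 17), and p-values adjusted by Benjamini-Hochberg over the 18295 tested genes. The thresholds are those in the methods of the study. Alternatives were DESeq2 1.42.0, limma 3.58.1 with voom, RLE size factors, no filter, a mean of at least 1 CPM, a linear fold change threshold of 1.5, a pairwise fit, replicate number as a block, library state as a term, and leaving out libraries. Library state is the sign of the rank correlation between exonic length and a library's deviation from the mean of all 23 fitted libraries. Positions and lengths are from GENCODE 44; 711 of the gene rows did not match it. The fits were tested on simulated data. Counts of any pair of libraries of a line differed by far more than sampling noise, so none was deposited in duplicate.

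The genes named are, among genes called with all libraries and with 3 against 3, the 12 largest rises and 12 largest falls with at least 2 CPM in the higher line and the 6 of highest level in each direction, then the called members of the lists (at most 6 per direction), the genes the study names, and the 6 most significant genes in each direction against the other α clones. Genes with only an Ensembl identifier were counted and not named. A gene that the rule names is counted but not reported here. Other genes were chosen after their values were seen: markers, example list members, neighbors in runs, and genes called against the other α clones. The members and the 24 gene lists were chosen with earlier results of these data known.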

Additional observations from a re-analysis of the deposited data

Results flagged for a closer look

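Among the named genes, 17 of 129 groups of 4 libraries held a library far from the other 3 by Dixon's test; chance alone flags about 1 in 20 groups. Of these, 8 were Δ133p53α8 replicate 2 or control replicate 1. Δ133p53α8 replicate 2 was low for LRRC4C (2.29 CPM, the others at least 13.6) and MT-TM (20.8 CPM, the others at least 41.8). It was high for AP1S1 (195 CPM), SPARC (2.94 CPM), GAP43 (3.17 CPM) and IL13RA2 (7.51 CPM). Control replicate 1 was high for ISG15 (20.2 CPM) and BARX2 (5.27 CPM).

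Control replicate 3 was the distant library for 7 genes. It was high for ERRFI1 (651 CPM, the others at most 330.8), STC1 (223 CPM, the others at most 49.2), LTBP2 (110.1 CPM), L1CAM (2.07 CPM), RSPO4 (0.345 CPM), ZNF558 (1.07 CPM) and INSR (1.07 CPM). Δ133p53α8 replicate 1 was low for COL4A6 (1.77 CPM) and high for ROBO2 (1.16 CPM). The library state measured by exonic length did not set control replicate 3 apart, and its part in these values was not tested.

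Of the named genes called against control, 13 also differed between Δ133p53α8 and the other α clones (edgeR quasi-likelihood test, adjusted p from 5.08e-09 to 0.0197, n = 4 libraries per line). All but MGMT and ARHGAP6 were named for being among the most significant in this same comparison. The count therefore follows from the choice of genes and tests nothing. Of all 463 genes called against control, 16 were also called against the other α clones. On the log2 scale, Δ133p53α8 minus the mean of the other α clones was 5.8 for MT-TM, 8.12 for IL13RA2, 3.36 for ZNF558, 3.3 for INSR, 7.77 for SFMBT2, 2.74 for HSPB8, 4.71 for MGMT and 3.31 for ARHGAP6. It was -5.18 for TM4SF19, -1.67 for SLC12A7, -2.92 for FBXL7, -3.23 for SFRP1 and -2.09 for BARX2. STAT6, not called against control, was at -2.76. IL13RA2, SFMBT2 and MGMT had at most a few reads in the other α clones, so their fitted sizes depend on the prior count.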

How the results depend on the processing

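Of 71 named genes called against control, 54 kept an adjusted p under 0.05 in every alternative run. The fold change threshold was not part of this count, so not all 54 kept their calls. KRT8, at 1.31 without Δ133p53α8 replicate 2, and LTBP2, at -1.14 without control replicate 3, were under that threshold. NDRG1, ZC3HAV1L and RIPK4 went past an adjusted p of 0.05 with DESeq2 (adjusted p = 0.224, 0.277 and 0.437). The others, each past 0.05 in 1 to 11 alternatives with a largest adjusted p of 0.0511 to 0.172, were ZNF519, AP1S1, DCBLD2, STC1, CLIP3, ISG15, SPARC, COL16A1, COL4A5, ADAMTS1, NKD2, ROBO2, SLIT3 and CDX2. Counts of called genes, 180 higher and 283 lower, were 117 and 157 with a mean of at least 1 CPM and 329 and 484 with a fold change of 1.5. The pairwise fit, of Δ133p53α8 and control alone, gave 122 higher and 193 lower. DESeq2 gave 216 higher and 345 lower, and library state as a term 228 higher and 404 lower. Leaving out 1 library gave 146 to 188 higher and 187 (without control replicate 3) to 427 (without Δ133p53α8 replicate 2) lower. Against the other α clones, 28 higher and 9 lower became 12 higher with a mean of at least 1 CPM and 15 higher with the pairwise fit, and 26 lower with DESeq2, 14 with voom, 18 with library state as a term and 14 with a fold change of 1.5. Leaving out 1 library gave 19 to 38 higher and 3 to 23 lower, with 3 without Δ133p53α8 replicate 1 or 4, 5 without replicate 3 and 23 without replicate 2. The cause was not tested for these, other than the fewer genes tested with the CPM minimum and the threshold itself. MET, not called, ran from -0.17 to 0.11 when 1 library was left out (0.112 without Δ133p53α8 replicate 2, 0.0591 and 0.0365 without control replicates 2 and 3), and EGFR, not called, from -0.0742 (without control replicate 1) to 0.41.

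The correlations of the deviations of same-numbered libraries were -0.422, -0.431, 0.218 and 0.438, whereas that of Δ133p53α8 replicate 2 with control replicate 1 was 0.716. The latter pair stands apart in its lines and enters the deviations of every library. These values therefore cannot decide whether same-numbered libraries were prepared together. With the replicate block, 158 genes were higher and 247 lower than control, and 22 and 8 against the other α clones.

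Genes near the floor limit what can be said: a level under 3 reads per library, 0.131 CPM in Δ133p53α8, was not detectable, and small changes at low counts would be missed.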
